A study of Homo sapiens with 9 samples.

Results

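The resistant prostate cancer line VCaP16 was compared with its parental line VCaP after short exposure to the same drug, at the level of open chromatin. The members were found from the 6 ATAC-seq peak lists of both groups alone: peaks overlapping by at least 1 bp were merged into 89440 regions, and the 63374 regions that at least 2 of the 3 VCaP16 libraries or 2 of the 3 libraries of the exposed parental cells called were kept. The same rule over all 9 libraries of the series gave 66108 regions. In the group VCaP_ENZ, parental cells had received 10 µM enzalutamide for 96 h (3 libraries), and VCaP16 held enzalutamide-resistant VCaP cells kept in 16 µM of the drug (3 libraries). Both groups carry the label WT and were on the drug, so the comparison sets a resistant line in long culture against parental cells in short exposure. Line, dose and length of exposure differ together and cannot be told apart. The remaining 3 libraries, VCaP_DMSO, came from VCaP cells given the solvent; they took no part in choosing the regions and are given beside the results. The labels do not say whether VCaP16 is 1 clone, nor whether the replicates of a group are cultures of their own; p-values therefore measure only the spread between these libraries, which may be technical.

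In ATAC-seq the transposase Tn5 cuts open DNA, and a peak marks promoters, enhancers and other sites where nucleosomes give way to bound factors. VCaP is an established human prostate cancer cell line whose growth depends on hormone signalling, and enzalutamide is an antiandrogen drug used against such cancers. Cells that grow on under the drug are known to differ from their parents in which enhancers are open. The deposited lists give, for each peak, its position on hg19 and a score read here as −log10(p) or −log10(q), and no read counts, so depth per library is unknown. No annotation of hg19 was used here, and regions are named by their coordinates.

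The VCaP16 lists held 57894, 57315 and 68921 peaks and the VCaP_ENZ lists 54033, 61744 and 53646 on chromosomes 1 to 22 and X. The longest list of each group, VCaP16 replicate 3 and VCaP_ENZ replicate 2, also had the widest peaks of its group. Of the 63374 regions, the VCaP16 libraries called 83.0%, 83.2% and 91.9% and the VCaP_ENZ libraries 78.1%, 86.1% and 77.8%. The groups overlapped: VCaP_ENZ replicate 2 called more of the regions than VCaP16 replicates 1 and 2. The means were 86.0% ± 5.07 and 80.7% ± 4.68 (SD, n = 3 each), and the difference of 5.34 percentage points had a two-sided exact permutation p of 0.3, where 3 against 3 libraries allow no p below 0.1. The difference was -0.688 percentage points without VCaP16 replicate 3, 1.03 with lists of equal length and 8.81 where peaks had to cover at least 50% of a region. The VCaP_DMSO libraries called 76.9% ± 2.28 of these regions (SD, n = 3), in whose choice they had no part.

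Most of the open chromatin was shared by both groups. A total of 36312 regions, 57.3% of the 63374, were called in all 6 libraries, and 91.2% of these were called in all 3 VCaP_DMSO libraries as well. Regions called in more VCaP16 than VCaP_ENZ libraries numbered 14773 and those called in more VCaP_ENZ than VCaP16 libraries 8773. The sharpest contrast, 3 of 3 libraries against 0 of 3, was met by 1072 regions for VCaP16 (1.69% of the regions) and by 393 for VCaP_ENZ (0.62%). Weaker contrasts, counted from the same lists at their full length, leaned the same way. There were 2233 regions called in 3 VCaP16 libraries and 1 VCaP_ENZ library against 1219 in reverse, and 4615 against 3231 for 3 libraries against 2. For 2 libraries against 0 the counts were 3301 and 1517. The lean was smaller when the same number of best-scoring peaks was taken from each list, at 816 against 671 regions for 3 of 3 against 0 of 3. Which regions met the pattern changed as well: 671 of the 1072 and 271 of the 393 still met it with lists of equal length, and 591 and 136 where peaks needed a score of at least 5. Without VCaP16 replicate 3 the counts were 1566 and 1129. No single region can be tested by calls in 3 against 3 libraries, since the smallest p is then 0.1.

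**Figure D1:**
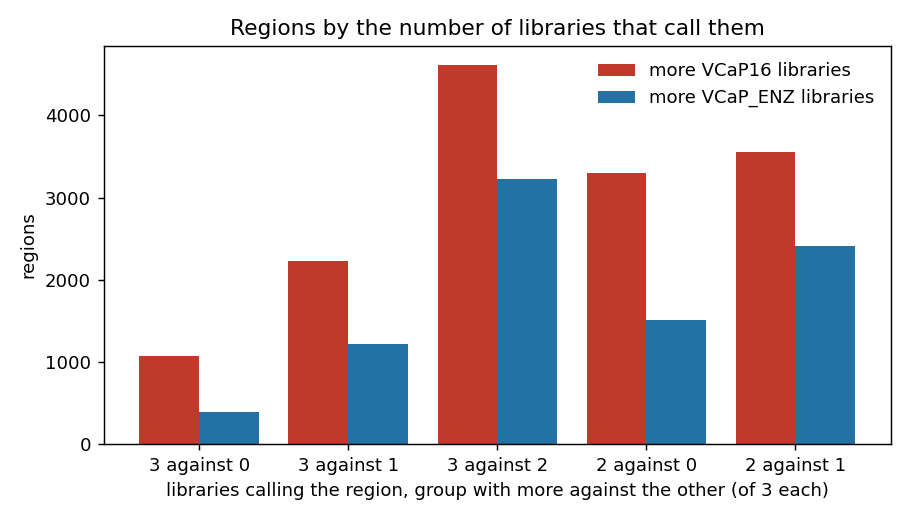
Bars count regions by how many of the 3 libraries of each group call them, with the group that has more calls named by colour (red for VCaP16, blue for VCaP_ENZ). In each of the 5 pairs the red bar is taller, from 1072 against 393 regions at 3 against 0 to 4615 against 3231 at 3 against 2.

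The regions called in 1 group only were weak and narrow, as were the 25597 remaining regions not called in all 6 libraries. The median score was 7.24 for the VCaP16 and 5.83 for the VCaP_ENZ regions. It was 6.97 for the remaining regions and 18.9 for those called in all 6 libraries. The peaks themselves were 291 bp and 272 bp wide at the median, against 294 bp and 558 bp. Positions were counted by score from the top, among those of the 63374 regions that a library called. The median position was 78.7% for the VCaP16, 86.0% for the VCaP_ENZ and 80.7% for the remaining regions. Taking each region's median over libraries, 84 of the 1072 (7.84%) and 7 of the 393 (1.78%) lay in the upper 50% of these positions. Of the remaining regions 6.07% did. The upper 25% held 67 of the remaining regions and none of the 1072 or the 393. The VCaP16 and VCaP_ENZ regions lay at a median of 22.8 kb and 19.6 kb from the nearest region called in all 6 libraries, against 20.2 kb for the remaining regions. At the rule's own edge, 14299 regions reached 2 of 3 libraries in a group and no more (median score 6.19), and just outside it lay 4919 regions called in 1 library of each group (median score 5.44).

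The solvent-treated libraries, which did not enter the rule, called these regions at different rates. Of the 1072 VCaP16 regions, 520 (48.5%) were called in no VCaP_DMSO library while 9.42% were called in all 3. Of the 393 VCaP_ENZ regions, 96 (24.4%) were called in none and 84 (21.4%) in all 3. For the regions outside both kinds and not called in all 6 libraries, the shares were 22.96% and 26.9%. The VCaP16 regions were absent from the solvent lists more often than those remaining regions, while the VCaP_ENZ regions were close to them. The sets were not matched, however. The 1072 were chosen for no call, and the 393 for 3 calls, in the same parental line on the drug. The remaining regions include many with VCaP_ENZ calls, such as 4615 at 3 VCaP16 libraries against 2. How far the shares follow from that choice was not tested, and they are given as a description only.

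Chromosome 8, 99414739 to 99415214, held the VCaP16 region with the best median position, counted in the same way. It stood at 26.7%, 26.3% and 24.5% from the top in the 3 libraries, with peaks of 343, 324 and 433 bp. It was called in no VCaP_ENZ and no VCaP_DMSO library. Its positions were close together, which did not hold for all of the leading regions. The region at chromosome 13, 52810207 to 52810826, stood at 78.7%, 25.0% and 27.6%, and that at chromosome 9, 44419926 to 44420255, at 14.1%, 41.0% and 27.6%. Of the 10 best-ranked VCaP16 regions, 5 were called in no VCaP_DMSO library and none in all 3. The shares over all 1072 were similar, at 48.5% and 9.42%. Of the VCaP_ENZ regions, the one at chromosome 7, 56441102 to 56441320, led with 22.8%, 32.4% and 45.0% in VCaP_ENZ, and all 3 VCaP_DMSO libraries called it as well. No VCaP_DMSO library called the VCaP_ENZ regions at chromosome 19, 23663977 to 23664220, at chromosome 7, 81039820 to 81040334, or at chromosome 2, 53670035 to 53670240. Where peaks had to cover at least 50% of the region, 5 of the 10 VCaP16 and 7 of the 10 VCaP_ENZ regions kept the pattern.

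Regions open in every library allow a finer comparison, since their scores can be ranked over the same 36312 regions in each list. Each rank was turned into a normal score, the value of a standard normal distribution at that rank, so that 0 is the middle of the list and higher values lie nearer its top. Within groups, normal scores of pairs of libraries correlated at a mean r of 0.866 in VCaP16 and 0.851 in VCaP_ENZ, and between the groups at 0.827 (3, 3 and 9 pairs; across regions, which are not independent replicates). Every pair within a group was above every pair between the groups, 0.846 to 0.872 against 0.816 to 0.843.

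With limma and Benjamini-Hochberg adjustment over the 36312 regions, 259 regions (0.713%) ranked higher in VCaP16 and 164 (0.452%) lower, at an adjusted p below 0.05, together 423 regions (1.16%). The sizes of the shifts ran from 0.35 to 2.52 for the higher and from 0.37 to 1.89 for the lower regions. The median position of the higher regions moved from 62.6% from the top in VCaP_ENZ to 19.9% in VCaP16, and that of the lower regions from 22.4% to 65.0%. Groups overlapped at 3 of the 259 and 2 of the 164. Over all common regions, groups did not overlap in the higher direction at 8.52% and in the lower at 8.94%, and 12.9% had an unadjusted p below 0.05. The calls rested on limma's trend of variance with mean rank, as the plot of rank shifts shows by its narrowing to the right: the SD of the shift over regions was 0.55 in the lowest 10% of the list and 0.21 in the top 10%. Without that trend 3 regions were called higher and none lower (4255 had an unadjusted p below 0.05). Each library mattered to the counts: 140 higher and 108 lower were called without VCaP16 replicate 1, 70 and 56 without replicate 2 and 110 and 94 without replicate 3, and 182 and 57, 173 and 63, and 203 and 65 without VCaP_ENZ replicates 1, 2 and 3.

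**Figure D2:**
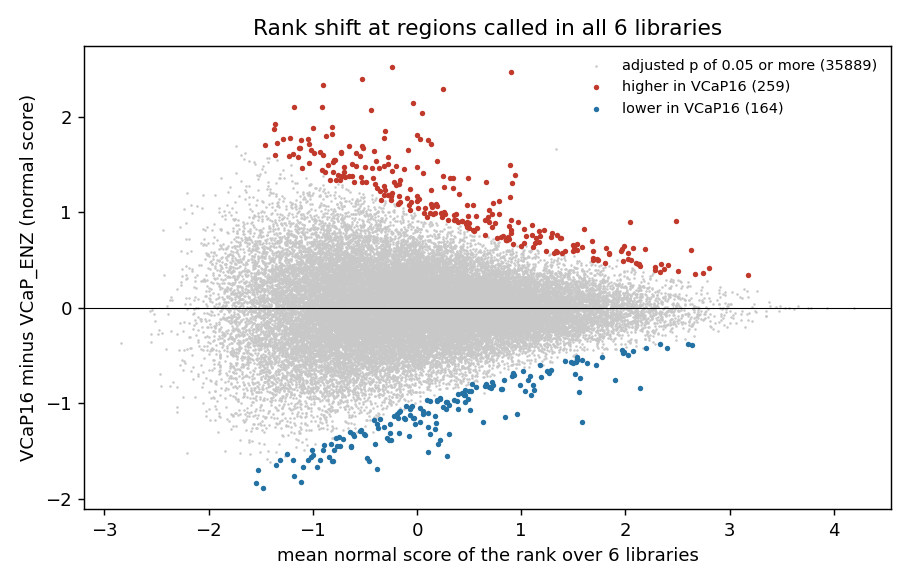
Each point is 1 of the 36312 regions called in all 6 libraries, with its mean normal score over the libraries on the x axis and the difference of group means, VCaP16 minus VCaP_ENZ, on the y axis. The 259 regions higher in VCaP16 (red) and the 164 lower (blue) lie at the edges of a cloud that widens towards low-ranked regions on the left.

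At the shifted regions the solvent-treated cells stood nearer to the parental cells on the drug than to VCaP16. The median position over the VCaP_DMSO libraries was 55.5% from the top at the 259 higher regions and 33.8% at the 164 lower ones. The VCaP_DMSO mean lay nearer to VCaP_ENZ than to VCaP16 at 205 of the 259 (79.2%) and at 127 of the 164 (77.4%), against 53.9% of all common regions. The VCaP_DMSO mean lay between the groups at 150 of the higher and 141 of the lower regions. It lay below both groups at 104 of the higher regions and above both at 21 of the lower ones. Over all 36312 common regions it lay between them at 11994, below both at 11512 and above both at 12806. These counts are not matched: the shifted regions were chosen for a wide gap between the groups. The median difference was 1.09 at the higher and -1.07 at the lower regions, against -0.001 over all. A wide gap leaves more room for the VCaP_DMSO mean to fall inside it, and how far the counts follow from that was not tested. All 3 VCaP_DMSO libraries called 209 of the 259 (80.7%) and 162 of the 164 (98.8%), where the share over all common regions was 91.2%. The higher regions thus include 50 that were not called in every solvent library, 8 of them in none. Uncalled regions ranked last in VCaP_DMSO, while the libraries of both other groups called every common region. This can lower the VCaP_DMSO mean at those 50, and its effect on the counts above was not tested.

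Peak width moved with rank but gave little of its own. Peaks were wider in VCaP16 at 231 of the 259 higher regions (89.2%) and at 45 of the 164 lower ones (27.4%), against 60.6% of all common regions. Width and score come from the same peak calls and are not independent. The merged regions were 708 bp wide at the median for the higher and 854.5 bp for the lower regions, against 767 bp over all. Over 10 classes of region width with about equal numbers, the mean shift ran from 0.079 in the narrowest (192 to 476 bp) to -0.040 at 948 to 1085 bp and -0.027 in the widest (1308 to 3717 bp), so that narrow regions as a whole ranked slightly higher in VCaP16. With normal scores centred within these classes, 155 regions were called higher and 67 lower, of which 155 and 55 were among those called before.

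The largest shift upward was at chromosome 6, 135224425 to 135225059. It stood at 28.4%, 9.07% and 12.5% from the top in VCaP16 and at 99.6%, 75.5% and 88.1% in VCaP_ENZ, a difference of 2.52 ± 0.33 in normal score (limma, SE, adjusted p = 8.56e-07). Without the variance trend this region had an adjusted p of 0.162 in limma and was not called. VCaP_DMSO replicates 1 and 3 had it at 85.4% and 90.5%, within the range of VCaP_ENZ, and replicate 2 did not call it. Its peaks were 519, 600 and 565 bp wide in VCaP16 and 190, 399 and 351 bp in VCaP_ENZ. One of the weaker open sites of the parental cells thus stood well up the list in each VCaP16 library.

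The region at chromosome 9, 68425969 to 68426756, had the smallest adjusted p. Its positions were 1.84%, 1.45% and 1.64% in VCaP16 and 73.7%, 51.0% and 63.2% in VCaP_ENZ (difference 2.47 ± 0.19, limma adjusted p = 1.7e-15). All 3 VCaP16 libraries thus placed it near the very top and all 3 VCaP_ENZ libraries below the middle. At chromosome 16, 2135759 to 2136495, the positions were 10.2%, 8.89% and 6.04% against 77.5%, 85.9% and 80.6% (2.29 ± 0.24, limma adjusted p = 1.55e-09). At chromosome 9, 131624630 to 131625171, they were 23.9%, 24.3% and 27.5% against 94.4%, 95.5% and 97.2% (2.40 ± 0.33, limma adjusted p = 2.12e-06). These 3 regions are the ones that stayed called without the variance trend, each then at a limma adjusted p of 0.0212. The last 2 were each called in 1 VCaP_DMSO library only, and the first in all 3, at 73.1% to 93.2% from the top.

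Further large upward shifts lay at chromosome 5, 95192897 to 95193465, and chromosome 12, 13288479 to 13289229. The first stood at 15.5%, 12.7% and 17.4% in VCaP16 and at 91.5%, 69.3% and 92.7% in VCaP_ENZ (2.14 ± 0.28), and the second at 19.999%, 11.3% and 12.1% against 78.5%, 83.8% and 87.2% (2.04 ± 0.26). The solvent libraries placed the chromosome 5 region at 57.2%, 85.5% and 50.5%, in part between the groups, and the chromosome 12 region beside VCaP_ENZ, at 68.9% to 81.4%. No VCaP_DMSO library called the regions at chromosome 2, 130952594 to 130953306, or at chromosome 11, 134573011 to 134573611, and the VCaP_ENZ libraries placed them at 87.7% or further down. In VCaP16 they reached 35.8%, 68.4% and 60.7%, and 29.9%, 58.0% and 46.1%. The remaining 2 of the 10, at chromosome 17, 34043862 to 34044773, and chromosome 8, 134895134 to 134895799, had differences of 2.33 ± 0.40 and 2.07 ± 0.33. The 10 regions passed under 10 to 15 of the 13 to 15 alternative settings run for each.

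The 10 largest downward shifts were smaller, at -1.89 to -1.60, and less stable, passing under 5 to 11 of the 13 to 15 alternative settings run for each. The largest was at chromosome 6, 99318742 to 99319430, which stood at 63.0%, 74.2% and 73.7% from the top in VCaP_ENZ and at 98.9%, 98.6% and 99.8% in VCaP16 (-1.89 ± 0.44, limma adjusted p = 0.0143). VCaP_DMSO did not side with VCaP_ENZ here: 1 of its libraries called the region, at 92.7%. At chromosome 9, 2298885 to 2299774, by contrast, the solvent libraries stood at 52.2%, 48.4% and 76.6%, near the 60.9%, 67.3% and 45.9% of VCaP_ENZ and away from the 99.7%, 96.8% and 92.9% of VCaP16 (-1.82 ± 0.41, limma adjusted p = 0.0106). The region at chromosome 1, 67655796 to 67656833, fell from 48.8%, 34.5% and 17.5% to 68.5%, 98.6% and 84.7% (-1.69 ± 0.34, limma adjusted p = 0.00319). Its peaks were 1017, 905 and 791 bp wide in VCaP_ENZ and 509, 509 and 931 bp in VCaP16. The remaining 7 lay on chromosomes 3, 6, 9, 10, 12 and 14 and had adjusted p values of 0.0131 to 0.0395 in limma.

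**Figure D3:**
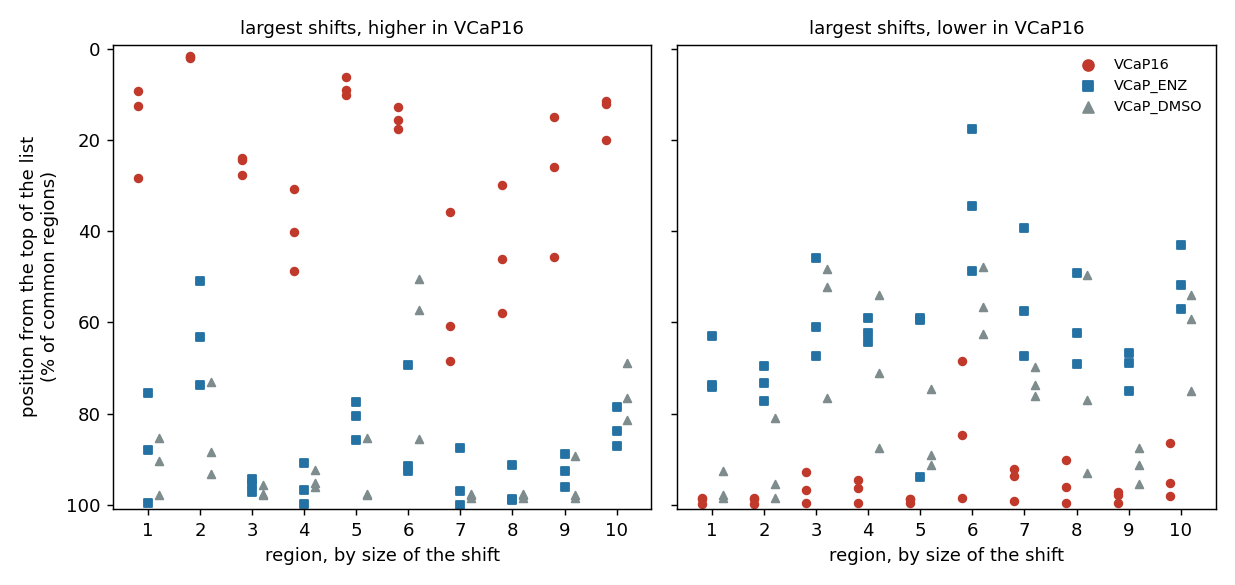
Positions from the top of each list, in percent of the 36312 common regions, for the 10 regions with the largest upward (left) and downward (right) shifts in VCaP16; red circles are the 3 VCaP16 libraries, blue squares the 3 VCaP_ENZ libraries and grey triangles the 3 VCaP_DMSO libraries, with uncalled regions placed at the bottom. Red and blue symbols do not overlap in any of the 20 columns, because only regions without overlap were eligible. In the left panel the triangles lie low, near the blue squares, in all columns but the sixth, where they spread upwards towards the red circles.

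Mean ranks also differed over whole chromosomes. The mean normal score of the common regions of chromosome 9 was 0.067, 0.074 and 0.071 in VCaP16 and 0.005, 0.012 and 0.009 in VCaP_ENZ, a difference of 0.062 ± 0.007 (limma over 23 chromosomes, adjusted p = 0.000373). That of chromosome 5 was -0.022, -0.043 and -0.011 against 0.031, 0.027 and 0.025, a difference of -0.053 ± 0.009 (limma adjusted p = 0.0052). These 2 of 23 chromosomes (8.7%) passed, their groups did not overlap, and both passed with each library left out in turn, with limma adjusted p values of 0.00034 to 0.00466 for chromosome 9 and 0.00167 to 0.0432 for chromosome 5. Without VCaP16 replicate 2, 4 chromosomes passed, chromosomes 10 and 15 being added. The shifts are small against those of single regions. VCaP_DMSO lay between the groups on both, at means of 0.035 on chromosome 9 and -0.001 on chromosome 5.

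Chromosome 9 held 17 of the 259 higher and 6 of the 164 lower regions, 0.998% and 0.352% of its 1703 common regions, against 0.713% and 0.452% over all chromosomes. Chromosome 5 held 6 and 19, or 0.325% and 1.03% of 1847. The share of higher regions did not follow the mean shift in general: it was above that of chromosome 9 on chromosomes 8, 11, 13, 15 and X, at 1.05% to 1.43%, and the mean shift of none of these passed. By calls in 3 of 3 against 0 of 3 libraries there were 56 VCaP16 and 19 VCaP_ENZ regions on chromosome 9 (1.93% and 0.654% of its regions) and 47 and 24 on chromosome 5 (1.40% and 0.713%), against 1.69% and 0.62% over all chromosomes. On both chromosomes the VCaP16 regions were thus the more numerous kind, as they were over all regions. The common regions of both chromosomes were of ordinary width, 768 bp and 777 bp at the median, and the shifts were 0.062 and -0.052 with normal scores centred within classes of width.

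**Figure D4:**
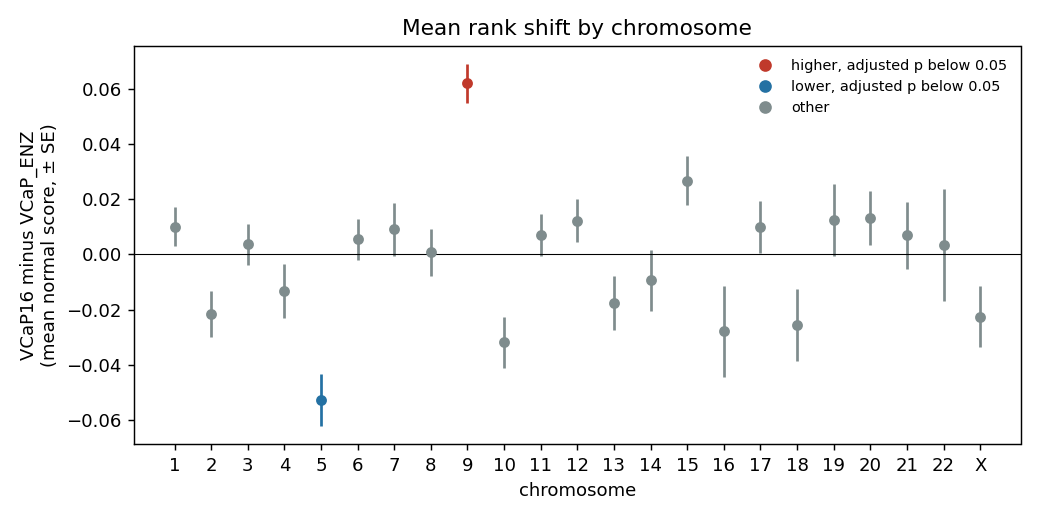
Difference in the mean normal score of common regions (VCaP16 minus VCaP_ENZ, points, with SE bars) for chromosomes 1 to 22 and X. Chromosome 9 lies highest at 0.062 and chromosome 5 lowest at -0.053, and the other 21 did not pass the adjusted test.

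The shifts of both chromosomes were spread along them. In 5 Mb bins with at least 20 common regions, 18 of the 24 bins of chromosome 9 had a positive and 24 of the 31 bins of chromosome 5 a negative difference. The median difference over all bins was slightly negative, at -0.009. The count of chromosome 5 was not particular to it: 20 of the 26 bins of chromosome 10 and 11 of the 15 of chromosome 16 were negative. The mean shifts of chromosomes 10 and 16 did not pass. Over all 533 bins, 4 were called higher (0.75%) and 10 lower (1.88%) in VCaP16 by limma, and 3 of the lower ones were on chromosome 5. The largest difference was at chromosome 5, 125 to 130 Mb, where 47 regions averaged -0.220, -0.161 and -0.110 in VCaP16 and 0.125, 0.031 and 0.141 in VCaP_ENZ (-0.26 ± 0.04, limma adjusted p = 0.0115). The bin at 115 to 120 Mb of the same chromosome differed by -0.23 and that at chromosome 2, 50 to 55 Mb, by -0.24. Upward, neighbouring bins of chromosome 6 at 15 to 20 Mb and 20 to 25 Mb differed by 0.18 each, and the bin at chromosome 9, 130 to 135 Mb, with 162 regions, by 0.16. The calls of single bins were less stable than those of chromosomes: with 1 library left out, 0 or 1 bins were called higher and 0 to 6 lower, with none in either direction without VCaP_ENZ replicate 1 or without VCaP16 replicate 2.

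Peak widths at common regions gave no call. No region was wider or narrower in VCaP16 at an adjusted p below 0.05 by limma (0% each), while 2232 (6.15%) had an unadjusted p below 0.05. The median covered width was 540, 564 and 633 bp in the VCaP16 and 527, 605 and 525 bp in the VCaP_ENZ libraries, so that the libraries with the longest lists were widest in both groups. Groups did not overlap at 2943 regions (8.1%) where VCaP16 was wider and at 1104 (3.04%) where it was narrower. The largest narrowing with groups that did not overlap was at chromosome 7, 27228422 to 27231783, with 741, 972 and 758 bp in VCaP16 and 2327, 3122 and 2795 bp in VCaP_ENZ, a ratio of 0.300 (limma adjusted p = 0.191). That region also ranked lower in VCaP16, at 96.0%, 82.2% and 91.8% from the top against 42.6%, 60.0% and 36.7% (-1.45 ± 0.35, limma adjusted p = 0.0196), and lay at 67.1% to 85.9% in VCaP_DMSO. The largest widening was at chromosome 6, 111234740 to 111237283, with 1419, 1599 and 2387 bp against 380, 495 and 391 bp (limma adjusted p = 0.362). With each library centred on its median width, these 2 regions passed, both at an adjusted p of 0.0135 in limma.

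The first places of the list were held by the same regions in both groups. The region at chromosome 1, 569489 to 570286, ranked first and that at chromosome 1, 121484079 to 121485429, second in all 6 libraries and in the 3 VCaP_DMSO libraries. The third and the fourth place in the 6 libraries went in turn to chromosome 5, 134259585 to 134260432, and to chromosome 17, 22020562 to 22020957. The region ranked first scored 4123 to 5243 in the 6 libraries, where the median over common regions was 18.9. Whether scores of this size reflect open chromatin was not tested.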

How the data were processed

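Per the labels' protocols, cells were crosslinked with 1% formaldehyde for 10 minutes before tagmentation; a single-cell preparation is described too, but each list was used as 1 bulk library. Per the submitters' processing notes, the build was hg19 and the tools were MACS2 2.2.7.1, BWA 0.7.15-r1140 and HOMER 3.12; settings, read filters and any Tn5 shift are not given in the sources used here. Each library has 1 peak list deposited by the authors, with a score read as −log10(p) or −log10(q) because none was below 2; depth is unknown, and the score served to rank peaks within lists, and median scores only describe kinds of region.

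Peaks on chromosomes 1 to 22 and X were merged at 1 bp overlap (Python 3.11.15). No filter for repeats or artefact-prone stretches was applied to them here. A region's score in a library was its best peak's. Ranks over the 36312 common regions became normal scores and were tested with limma 3.58.1 (R 4.3.3), with a variance trend, as were log2 covered widths; means over 5 Mb bins and chromosomes were tested without the trend, all with Benjamini-Hochberg adjustment. VCaP_DMSO libraries were scored at the same regions, uncalled ones ranking last. Library values were compared by exact permutation. The counting and the limma step were tested on simulated data. Members, lists and tests were chosen with earlier results of these data known. Named regions are the 10 best-ranked per direction of calls, the 10 largest rank shifts, 5 largest width changes and 5 largest bins per direction with groups that did not overlap (bins: by size alone), and the 5 top common regions; not every one is printed, and others named were chosen after their values were seen. The planned assignment to promoters and genes was not run, as no hg19 annotation was used here. One genomic stretch is not reported here.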

Additional observations from a re-analysis of the deposited data

How the results depend on the processing

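Leaving out VCaP16 replicate 3 turned the difference in median peak width from 7.33 to -2.5 bp and that in the share of regions called from 5.34 to -0.688 percentage points; over single libraries left out the ranges were -2.5 to 19.3 bp, -0.688 to 10.1 points, 1130 to 7537 peaks and 0.407 to 5.09 Mb. With lists of equal length the differences were 29.7 bp, 1.03 points and 1.48 Mb, and the share differed by 8.81 points at 50% cover. Regions called in 3 of 3 against 0 of 3 libraries numbered 1566 to 2482 for VCaP16 and 631 to 1129 for VCaP_ENZ with single libraries left out, since fewer libraries make the pattern easier to meet; 4373 and 1910 at 2 of 3 against 0 of 3; 3082 and 1661 without the longest list of each group; and 671 for VCaP_ENZ with lists of equal length. Rank calls higher and lower were 70 to 203 and 56 to 108 with single libraries left out, 144 and 103 where peaks covered at least 50% of the region (22624 regions tested), 3 and 0 without the variance trend, 78 and 40 without the longest lists, and 155 and 67 centred within classes of region width. Bins called higher and lower were 0 to 1 and 0 to 6 with single libraries left out, 0 and 0 with the replicate block, 0 and 4 by median percentile, 7 and 5 with at least 50 regions, 6 lower centred within classes of region width, and 1 lower at 2 Mb. Widths gave 1 and 1 call with libraries centred, and 0 with single libraries left out. Chromosomes called numbered 2 to 4 with single libraries left out and 5 with the replicate block. The cause was not tested.

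Replicate numbers did not pair the samples: deviations of same-numbered libraries correlated at -0.004 to 0.001. The replicate block gave 314 higher and 220 lower rank calls. Removal of the longest lists and centring by width were chosen after seeing the data. Planned gene assignment was not run.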

Other observations

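Among the called regions, 24 adjacent pairs lay within 100 kb of each other: 11 both higher, 4 both lower and 9 in opposite directions. Values of some of them follow. On chromosome 9, 3 regions starting at 112650208, 112665604 and 112685591 all ranked higher, by 0.79, 0.60 and 0.82 in normal score. On chromosome 11, regions starting at 63852702, 63860754 and 63908582 went lower, higher and lower, by -0.76, 0.83 and -0.88 (limma adjusted p = 0.000137, 0.000153 and 0.00013). On chromosome 8, the region at 134272199 to 134273568 ranked lower by -1.20 (limma adjusted p = 1.89e-07), beside one at 134261645 to 134262674 that ranked lower by -0.42 and one at 134221413 to 134221959 that ranked higher by 0.59. These neighbours were chosen after their values were seen.

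By number, chromosome 8 held the most regions ranked higher in VCaP16, 27 of its 1887 common regions (1.43%), beside 13 ranked lower, while its mean shift was 0.001 ± 0.009. Chromosome 10 held 2 and 5 among 1485. Chromosome 14 had the highest share of regions called in 3 of 3 VCaP16 and 0 of 3 VCaP_ENZ libraries, 49 of 1935 (2.53%), and chromosome 17 the lowest, 31 of 2883 (1.08%).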
